A study of Mus musculus with 4 samples.

Results

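Autophagy genes were examined in RNA of mouse regulatory T cells. They were the protein-coding genes of the GENCODE M21 annotation whose symbol is Atg followed by a digit, together with 18 named genes of the same pathway, among them Becn1, Ulk1, Gabarap, Sqstm1 and Tfeb. The rule used names and not measured values, but it was set with earlier results of these data known. It found 37 genes among 50600 in the deposited tables, of which 21764 are protein-coding in that annotation. Of the 37, 36 belong to 8 steps of the pathway. The remaining gene, Atg4a-ps, is a near-identical copy of Atg4a that M21 classes as protein-coding.

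The study holds 4 libraries of primary regulatory T cells of strain C57BL/6NJ, biological replicates 1 to 4 of a single group with no control or treatment. Age is labelled unknown and sex not collected, and 1 donor record is shared by all 4 libraries, with nothing on separate mice or cultures. Replicates 1 and 2 carried Xist, the RNA of the inactive X chromosome, and replicates 3 and 4 the Y-linked gene Ddx3y, as female and male cells do, so the 4 libraries did not share a single source. The p-values below measure the spread between these libraries, which within each such pair may be technical. A protocol for CD4+ T cell differentiation is linked to every library, and the sample names inside the files add the words activated and sorted and 72 h. The assay is titled total RNA-seq, while the linked library protocol names poly(A)+ RNA. Libraries held 32648138 to 94983494 counted read pairs. The label was checked against markers: the 5 regulatory T cell genes summed to 3878 to 4233 TPM (a relative level corrected for gene length and library size) and the 5 general T cell genes to 2901 to 3297 TPM. Among the regulatory T cell genes Foxp3 itself measured 433 to 495 TPM, so most of their sum came from the others. Marker lists of other cells were low. The 4 neutrophil genes had no count, and the 3 NK cell genes summed to at most 0.101 TPM, with Ncr1 and Klra8 at 0. Dendritic cell genes summed to at most 0.208 TPM with Siglech at 0, erythroid genes to at most 0.245 TPM with Hbb-bs and Alas2 at 0. Monocyte and macrophage genes summed to 1.19 to 3.29 TPM, B cell genes to 5.31 to 7.34 TPM and CD8 genes to 12.6 to 16.6 TPM.

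Autophagy is the process by which a cell encloses part of its cytoplasm in a double membrane, the autophagosome, and delivers it to the lysosome for breakdown. A kinase complex built on ULK1 or ULK2 starts it, a lipid kinase complex with beclin 1 marks the growing membrane, and a set of ubiquitin-like conjugation enzymes attaches ATG8 proteins (the LC3 and GABARAP families) to it. Cargo receptors bind both ATG8 proteins and the material to be removed. In regulatory T cells autophagy is known to be needed for lineage stability, as shown by deletion of Atg5 or Atg7 in mice.

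One pair of sequences bears on how a member was counted. Atg4a (ENSMUSG00000079418.3, mm10 chrX:140956907-141164270, plus strand) encodes a protease that processes ATG8 proteins. Atg4a-ps (ENSMUSG00000087119.4, mm10 chr3:103643954-103646068, minus strand) matches its transcript over 2115 bases with 15 mismatches, 99.3% identity. In the 1188 coding bases of that match 7 differ. A coding stretch of 60 bases from the GENCODE M21 transcripts is shown because it holds the densest mismatches, which are in capitals, and every other base is shared.
Atg4a: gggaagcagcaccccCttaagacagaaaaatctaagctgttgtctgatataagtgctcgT
Atg4a-ps: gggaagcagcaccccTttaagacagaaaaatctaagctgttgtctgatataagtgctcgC
Read pairs that fit both places equally well were not counted. At 95% identity or more over 75 bases, 96.0% of the Atg4a transcript lies in such copies, so both levels below may be undercounted.

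E-box letters were looked for because TFEB and TFE3, both members, are known to bind CACGTG; the motif of their lysosomal targets extends it to TCACGTGA. Promoter windows of RefSeq on GRCm38.p6, the mm10 assembly, run from 250 bases before to 50 after each annotated start, and 30 of the 37 genes matched. Both read the same on either strand, and each longer motif also holds the shorter. The shorter was present in 4 of 36 windows of members, 11.1%, against 7.15% of all 32851 windows. The longer form was present in 1 window, that of Atg3, or 2.78%, against 0.974% of all windows. The windows with a match are shown as 30 bases each, with the motif in capitals.
Atg3 (chr16:45158746-45158775, plus strand, motif starting 72 bases before the start): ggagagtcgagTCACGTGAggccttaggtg
Atg3 (chr16:45158723-45158752, plus strand, 94 bases before): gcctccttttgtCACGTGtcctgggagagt
Atg5 (chr10:44268313-44268342, plus strand, 14 bases before): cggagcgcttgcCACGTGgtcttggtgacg
Atg7 (chr6:114670952-114670981, plus strand, 132 bases before an internal start): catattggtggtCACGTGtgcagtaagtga
Atg14 (chr14:47568418-47568447, minus strand, 1 base before): aaaacaaaatccCACGTGactggccctgag
A match is a description of the letters and not of binding. These 4 genes encode an ATG8-conjugating enzyme (Atg3), the partner of ATG12 (Atg5), the activating enzyme of both conjugation systems (Atg7) and the targeting subunit of the lipid kinase complex (Atg14).

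Nearly all of the chosen genes were expressed. Of the 37 genes 36 reached 1 TPM in every library, against 49.1% of all protein-coding genes. Most were of middling abundance: 3 exceeded 100 TPM in the mean, 29 lay between 10 and 100 TPM, 4 between 1 and 10 TPM, and Atg4a-ps below 1 TPM. The median member stood at 27.2 ± 1.61 TPM (SD of the library medians, n = 4). With members under 1 TPM in any library left out it was 28.3 ± 1.83 TPM. The 10680 protein-coding genes that reached 1 TPM in every library had a median of 30.7 ± 0.8293 TPM. Of the members 17 lay above the median of those genes.

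**Figure D1:**
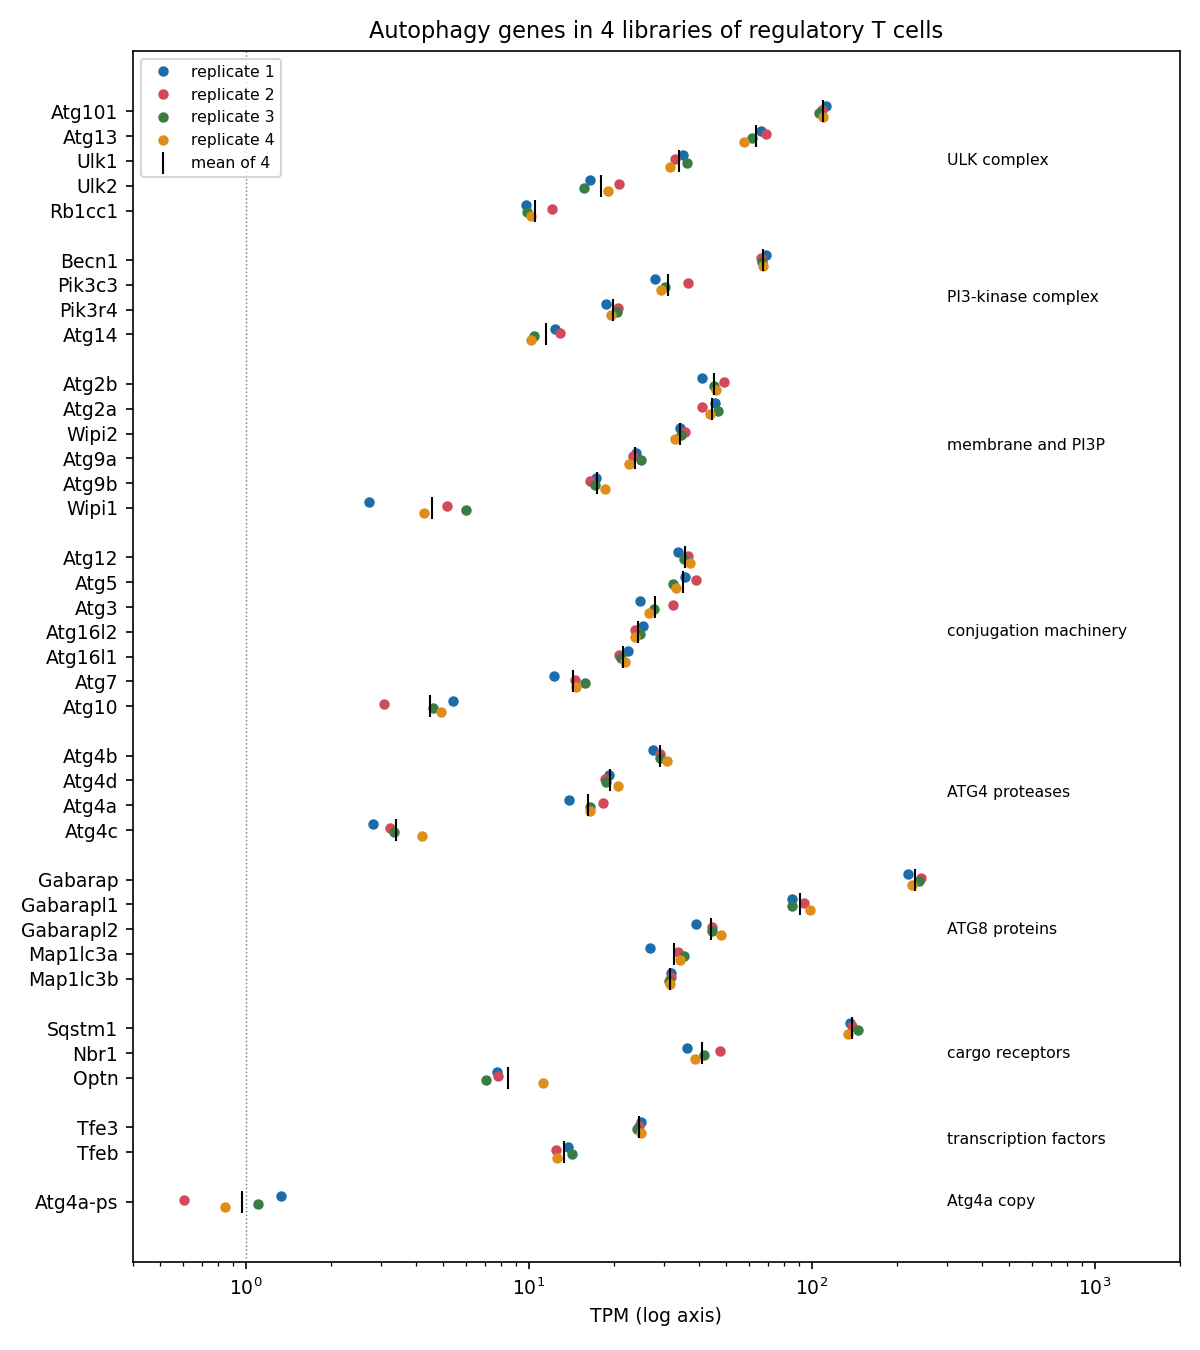
Level of each autophagy gene in TPM (log axis) in replicates 1 to 4, grouped by step, with the mean of 4 as a black bar and 1 TPM as a dotted line. Gabarap, at 218 to 244 TPM, lies above every other gene drawn, and the points of most genes lie close together, with wider spreads for Wipi1, Atg10, Optn and Atg4a-ps.

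Of the ULK complex, which starts the pathway, Atg101 was highest in TPM. Atg101, which stabilises ATG13 in the ULK complex, measured 113, 109, 107 and 109.7 TPM in replicates 1 to 4. Atg13, the regulatory subunit, followed at 63.6 ± 4.96 TPM (SD, n = 4), with a range of 57.8 to 69.0 TPM. Both lay above the kinases themselves in every library. Ulk1 measured 35.2, 32.8, 36.4 and 31.5 TPM, and Ulk2 16.5, 20.8, 15.7 and 19.1 TPM. The values of the 2 kinases do not overlap, and where Ulk1 was lower, in replicates 2 and 4, Ulk2 was higher. Ulk1 accounted for 65.4 ± 4.29% of the summed kinase TPM. The lowest of the complex was Rb1cc1, the large scaffold FIP200, at 9.82, 12.1, 9.91 and 10.2 TPM, with replicate 2 above the other 3. That rank depends on the length: with the longest transcript Rb1cc1 stood at 14.7 ± 1.54 TPM and Ulk2 at 13.6 ± 1.79 TPM.

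Among the genes of the class III PI3-kinase complex, which makes the lipid PI3P on the forming membrane, Becn1 was highest. It measured 69.1, 66.0, 66.9 and 67.6 TPM, an SD of 1.93% of its mean. The catalytic subunit Pik3c3 stood at 31.1 ± 3.78 TPM and the regulatory subunit Pik3r4 at 19.9 ± 0.869 TPM (SD, n = 4). That gap depends on the length: with the longest transcript Pik3c3 stood at 30.8 ± 3.78 TPM and Pik3r4 at 29.2 ± 1.24 TPM. Atg14, which directs the complex to autophagy, was lowest, at 12.4, 12.9, 10.5 and 10.2 TPM. Becn1 also serves a second complex, with UVRAG in place of ATG14, and Uvrag stood at 12.7 ± 1.36 TPM, so the levels of Becn1, Atg14 and Uvrag are given side by side without a reading of complex amounts.

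Lipid transfer and membrane supply genes were present as paralogue pairs. The lipid transfer protein genes Atg2a and Atg2b overlapped with the deposited length: Atg2a measured 45.6, 41.1, 46.7 and 43.9 TPM and Atg2b 41.0, 49.2, 45.2 and 46.2 TPM. With transcript lengths Atg2a, at 38.7 ± 2.13 TPM, lay below Atg2b, at 44.2 ± 3.24 TPM, in 4 of 4 libraries. Atg9a, a scramblase of the vesicles that seed the membrane, measured 23.9, 23.3, 24.9 and 22.7 TPM. Its paralogue Atg9b (ENSMUSG00000038295.14, chr5:24384181-24392143, minus strand), known for a narrower tissue range, measured 17.3, 16.5, 17.2 and 18.7 TPM from 740 to 2006 read pairs per library. Of the exon bases of Atg9a 31.8% overlap the transcript Gm29253 on the same strand; read pairs in such bases are assigned to no gene, and Gm29253 itself had no count. With those bases left out of its length, a step chosen after the data were seen, Atg9a stood at 34.8 ± 1.36 TPM. The PI3P-binding genes were unequal. Wipi2, which recruits ATG16L1, measured 34.3, 35.7, 34.4 and 33.1 TPM, and Wipi1 2.73, 5.15, 6.02 and 4.29 TPM, lowest in replicate 1.

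Conjugation genes ranged from 4.496 to 35.7 TPM in the mean. The ubiquitin-like protein gene Atg12 measured 33.7, 36.5, 35.5 and 37.1 TPM, and its acceptor Atg5 stood at 35.1 ± 2.93 TPM (SD, n = 4), with overlapping ranges. With the longest transcript as length they separated, to 13.5 ± 0.534 TPM for Atg12 and 25.4 ± 2.21 TPM for Atg5. For Atg12 that M21 transcript has 4765 bases, more than the 2492 deposited exon bases of M13 over which read pairs were counted. Its lower level, and so the separation, thus mixes annotation versions. Atg3, the conjugating enzyme for ATG8 proteins, stood at 27.9 ± 3.28 TPM, and Atg7, the shared activating enzyme, at 14.4 ± 1.48 TPM, below the ranges of the others but Atg10. That rank depends on the length. In CPM (counts scaled to library size), Atg7, at 30.9, stood above Atg12 (27.5), Atg3 (27.2) and Atg5 (25.5). Atg16l1 (64.2) and Atg16l2 (63.9) stayed above Atg7. Atg10, the conjugating enzyme for ATG12, was lowest, at 5.41, 3.10, 4.59 and 4.89 TPM from 79 to 218 read pairs. Atg16l1, the scaffold that places the conjugate on the membrane, measured 22.4, 20.9, 21.1 and 21.9 TPM. Its paralogue Atg16l2 measured 25.4, 23.7, 24.9 and 23.7 TPM, above Atg16l1 in every library with the deposited length. With the longest transcript as length the order turned, to 48.0 ± 1.61 TPM for Atg16l1 and 23.2 ± 0.853 TPM for Atg16l2.

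The proteases that trim ATG8 proteins before conjugation and release them afterwards ranged over 3.41 to 29.2 TPM in the mean. Atg4b was highest in every library, at 27.5, 29.2, 29.1 and 30.8 TPM. Atg4d measured 19.3, 18.6, 18.8 and 20.7 TPM. Atg4a, counted only where it differs from its copy or where a read pair could be placed, measured 13.9, 18.3, 16.4 and 16.5 TPM. Atg4c was lowest, at 2.82, 3.25, 3.36 and 4.22 TPM. The copy Atg4a-ps reached 1.34, 0.605, 1.11 and 0.847 TPM from 18 to 69 read pairs. By exact Poisson 95% limits, which cover counting error only, its level lay between 0.961 and 1.82 TPM in replicate 1 and between 0.402 and 0.875 TPM in replicate 2. In the summed TPM of the 4 proteases Atg4b took 42.8 ± 0.515%.

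The GABARAP genes made up most of the ATG8 family. Gabarap (ENSMUSG00000018567.14, chr11:69991143-69994951, plus strand) measured 218, 244, 240.4 and 226 TPM, above 93.3% of the expressed protein-coding genes. Gabarapl1 followed at 85.1, 93.8, 85.3 and 98.5 TPM and Gabarapl2 at 39.0, 44.6, 44.6 and 47.8 TPM. Map1lc3a, which encodes LC3A, measured 26.9, 33.8, 35.5 and 34.4 TPM. Map1lc3b (ENSMUSG00000031812.16, chr8:121590361-121598760, plus strand), which encodes LC3B, the form most used to follow autophagosomes, measured 31.8, 31.997, 31.4 and 31.7 TPM. Its values were the closest together of any member, with an SD of 0.825% of the mean. The 3 GABARAP genes took 85.1 ± 0.312% of the summed ATG8 TPM (SD, n = 4), and the other genes of the family 7.55 ± 0.609% for Map1lc3a and 7.37 ± 0.377% for Map1lc3b. The share of Map1lc3b depends on the length used. Its merged exons span 7517 bases, and its longest protein-coding transcript in M21 is 2633 bases. With the transcript length it took 15.04 ± 0.694%, Map1lc3a 5.73 ± 0.485% and the GABARAP genes 79.2 ± 0.319%. Of the longest Gabarapl2 transcript 20.9% lies within 3 processed pseudogenes at 95% identity or more, so its level may be undercounted.

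**Figure D2:**
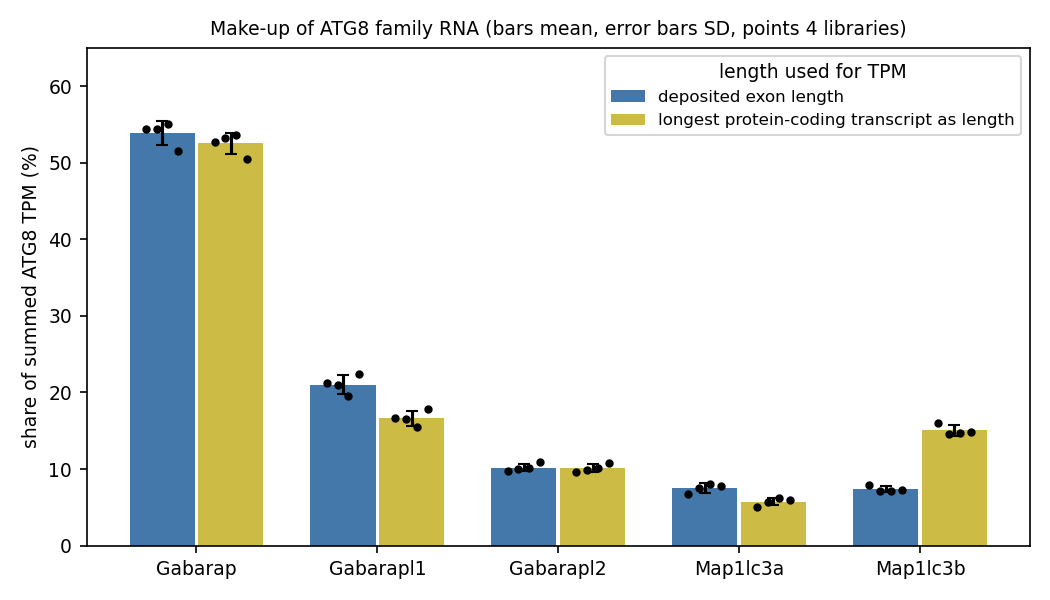
Share of the summed TPM of the 5 ATG8 genes in percent, as bars for the mean, error bars for the SD and points for the 4 libraries, with TPM from the deposited exon length or from the longest protein-coding transcript. Gabarap takes over 50% with either length, while Map1lc3b rises from 7.37% to 15.04%.

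Of the cargo receptors Sqstm1 was the most abundant. The gene, which encodes p62, the receptor for ubiquitinated cargo, measured 137, 139, 146 and 134 TPM, 73.7 ± 1.93% of the summed TPM of the 3 receptors. Nbr1, a receptor of related build, measured 36.3, 47.7, 41.8 and 38.8 TPM. Optn (ENSMUSG00000026672.11, chr2:5020642-5064051, minus strand), a receptor for damaged mitochondria and bacteria, measured 7.73, 7.79, 7.09 and 11.2 TPM, with replicate 4 apart from the others. The ranges of the 3 receptors do not overlap.

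The transcription factors that drive lysosomal and autophagy genes were both expressed. Tfe3 measured 24.9, 24.7, 24.1 and 24.96 TPM, and Tfeb 13.8, 12.5, 14.2 and 12.6 TPM. Tfe3 (chrX:7762560-7775202) and Atg4a are the 2 members on the X chromosome. The libraries differed in Xist, at 312, 331, 0.539 and 2.38 TPM, and in Ddx3y, at 0.0664, 0.0264, 26.0 and 31.2 TPM. Tfe3 lay within 24.1 to 24.96 TPM in all 4 of these libraries, and Atg4a was lowest in replicate 1 and highest in replicate 2, which were alike in Xist.

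By step, the median level was highest for the ATG8 proteins and lowest for the proteases. The library medians averaged 44 ± 3.64 TPM for the ATG8 proteins, 41.2 ± 4.90 TPM for the cargo receptors and 34.0 ± 2.23 TPM for the ULK complex (SD, n = 4). Next came the membrane and PI3P genes at 29.0 ± 0.815 TPM, the PI3-kinase complex at 25.5 ± 2.25 TPM and the conjugation genes at 24.3 ± 0.647 TPM. The transcription factors stood at 19.0 ± 0.354 TPM and the proteases at 17.8 ± 0.907 TPM. The ranges over libraries of neighbouring steps overlap, except that the ULK complex lay above the membrane and PI3P genes and the conjugation genes lay above the transcription factors, while the lowest library of the transcription factors, at 18.584 TPM, lay just above the highest of the proteases, at 18.56 TPM. With transcript lengths the ATG8 median was 65.5 ± 0.796 TPM, that of the transcription factors 35.99 ± 0.695 TPM and that of the ULK complex 30.6 ± 2.04 TPM, so the order of the middle steps depends on the length used. In CPM, which carry gene length, the ends of the order changed too. The cargo receptors (87.3 CPM) were highest, followed by the membrane and PI3P genes (73.8 CPM) and the ATG8 proteins (56.4 CPM). The conjugation genes (28.3 CPM) were about level with the proteases (28.4 CPM). These medians are descriptions, with no test. Ranked by single genes, 27 of 36 neighbouring pairs had overlapping ranges. The exceptions at the top set Gabarap, Sqstm1, Atg101 and Gabarapl1 apart from each other and from Becn1. With transcript lengths Becn1 stood at 78.9 ± 1.72 TPM, beside 76.7 ± 2.08 TPM for Atg101 and 72.5 ± 5.12 TPM for Gabarapl1.

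Paralogues and members of a step were compared within each library, as the difference of log2(TPM + 1), in 15 pairs. In 13 pairs the difference had 1 sign in 4 of 4 libraries. For each of those the exact two-sided sign-flip permutation p was the smallest that 4 libraries allow, and 0.144 after Benjamini-Hochberg adjustment over the 15 pairs, so none can pass 0.05. These compare different genes, so differences in capture between transcripts enter too.

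Wide differences on the log2(TPM + 1) scale separated Sqstm1 from Optn, by 3.90 ± 0.31 (SD, n = 4), Gabarap from Map1lc3b, by 2.83 ± 0.08, and Atg4b from Atg4c, by 2.78 ± 0.12. Wipi2 exceeded Wipi1 by 2.71 ± 0.38, from 2.33 in replicate 3 to 3.24 in replicate 1. Gabarap exceeded Gabarapl2 by 2.38 ± 0.11, and Sqstm1 exceeded Nbr1 by 1.74 ± 0.15. Differences of about 1 log2 unit or less held in every library for Gabarapl1 over Gabarapl2 (Gabarapl2 minus Gabarapl1, -1.03 ± 0.08), Ulk1 over Ulk2 (0.89 ± 0.26), Tfe3 over Tfeb (0.85 ± 0.10), Atg4b over Atg4a (0.81 ± 0.12), Atg4b over Atg4d (0.57 ± 0.06) and Atg9a over Atg9b (0.42 ± 0.11). Without the bases shared with Gm29253 the last was 0.96 ± 0.11. The size of several differences depends on the length. With transcript lengths Gabarap exceeded Map1lc3b by 1.79 ± 0.08, and in CPM by 0.83. With transcript lengths the lead of Atg4b was wider, at 1.497 ± 0.12 over Atg4a, 1.24 ± 0.06 over Atg4d and 3.58 ± 0.11 over Atg4c, as was that of Wipi2 over Wipi1, at 3.31 ± 0.38.

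The length used changed the sign or its agreement between libraries in 3 pairs, and with transcript lengths all 15 pairs had 1 sign in 4 of 4 libraries. Atg16l1 minus Atg16l2 was -0.17 ± 0.05, below 0 in 4 of 4 libraries, with the deposited length, but 1.02 ± 0.05, above 0 in 4 of 4, with the longest transcript, which is 3130 bases against 9628 bases of merged exons for Atg16l1. Map1lc3b minus Map1lc3a was -0.03 ± 0.18, positive in replicate 1 (by the exact permutation of signs, p = 0.75), but 1.36 ± 0.18, above 0 in 4 of 4, with the transcript length. Atg2a minus Atg2b was -0.03 ± 0.17, positive in 2 libraries and negative in 2 (by the exact permutation of signs, p = 0.75), but -0.19 ± 0.17, below 0 in 4 of 4, with the transcript length.

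**Figure D3:**
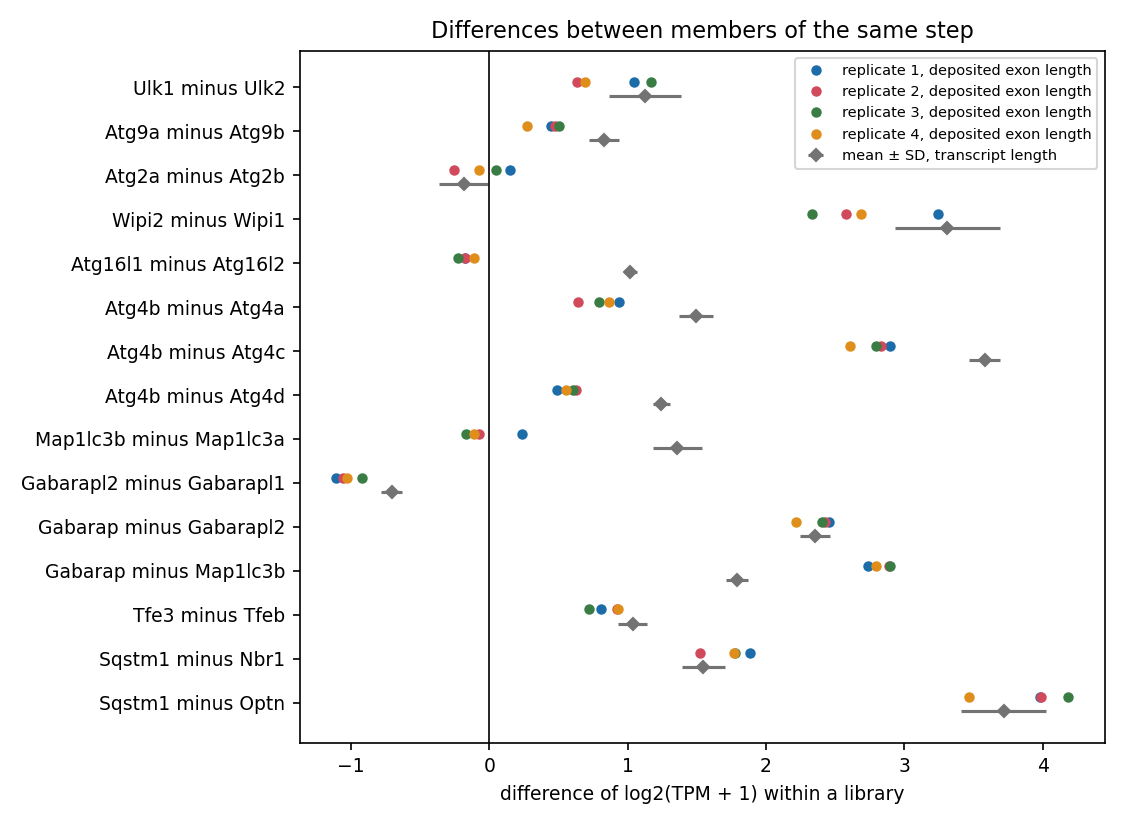
Difference of log2(TPM + 1) between the named genes within each library, as coloured points for the deposited exon length, with grey diamonds for the mean ± SD over 4 libraries with the longest protein-coding transcript as length. Atg16l1 minus Atg16l2 and Map1lc3b minus Map1lc3a change from near or below 0 to 1.02 and 1.36 with the transcript length, while Gabarap minus Gabarapl2 stays near 2.4.

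Between libraries most autophagy genes varied much as other genes of their level did. In bulk RNA a lower level can come from fewer cells of a type or from less RNA per cell, which cannot be told apart. All 37 genes passed the filter on low counts. The goodness-of-fit test of edgeR, which asks whether a gene differs between libraries more than genes of its abundance, called 0 of the 37 at an adjusted p under 0.05, against 0.378% of all 13494 genes tested. At an unadjusted p under 0.05 it found 1 member, Wipi1, against 5.97% of all genes, and limma also called 0 of 37. The highest library was over 1.5 times the lowest for 4 members, Atg4a-ps (2.34), Wipi1, Atg10 and Optn, against 25.6% of all genes tested. All 4 had means below 10 TPM. The ratio of highest to lowest library, in CPM (counts scaled to library size) with TMM scaling, had a median of 1.17 over the members and 1.24 over all genes tested. This spread falls as the level rises, so the shares of all genes tested are not matched for level. Among tested genes of 16 to 32 TPM the median was 1.20, against 1.13 for the 13 members there. At 32 to 64 TPM it was 1.17, against 1.18 for 10 members, and at 4 to 8 TPM 1.42, against 2.02 for 2 members. Of those 2, Wipi1, with a ratio of 2.188, lay just above the 90th percentile of tested genes at that level, 2.182.

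Wipi1 (ENSMUSG00000041895.15, chr11:109573331-109611967, minus strand) showed the lowest p of the members. It held 174, 497, 784 and 190 read pairs in replicates 1 to 4. The exact Poisson 95% limits of its level were 2.34 to 3.16 TPM in replicate 1, 4.71 to 5.63 TPM in replicate 2, 5.61 to 6.46 TPM in replicate 3 and 3.70 to 4.94 TPM in replicate 4. Replicate 1 thus lay below the other 3 by more than counting error. The highest library was 2.19 times the lowest, with an edgeR p of 0.0230 and an adjusted p of 0.679, so Wipi1 was not called. Without replicate 1 the ratio was 1.43 (edgeR adjusted p = 1.00).

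Atg10 had a ratio of 1.85 with replicate 2 lowest, and Optn one of 1.56 with replicate 4 highest, both with an edgeR adjusted p of 1.00. Each rests on 1 library: without replicate 2 the ratio of Atg10 was 1.19, and without replicate 4 that of Optn was 1.10. For Optn the exact Poisson 95% limits in replicate 4, 10.2 to 12.4 TPM, lay above those of replicate 1, 7.01 to 8.51 TPM, and of the others. For Atg10 those of replicate 2, 2.54 to 3.74 TPM, lay just under those of replicate 4, 3.87 to 6.09 TPM. At the other end Tfe3 and Map1lc3b had ratios of 1.07 and 1.05. No library stood out across the members: 6, 14, 8 and 9 were highest in replicates 1 to 4, against 23.3%, 38.7%, 16.6% and 21.4% of all genes tested. The lowest library was replicate 1 for 16 members, 43.2%, against 36.5% of all genes.

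**Figure D4:**
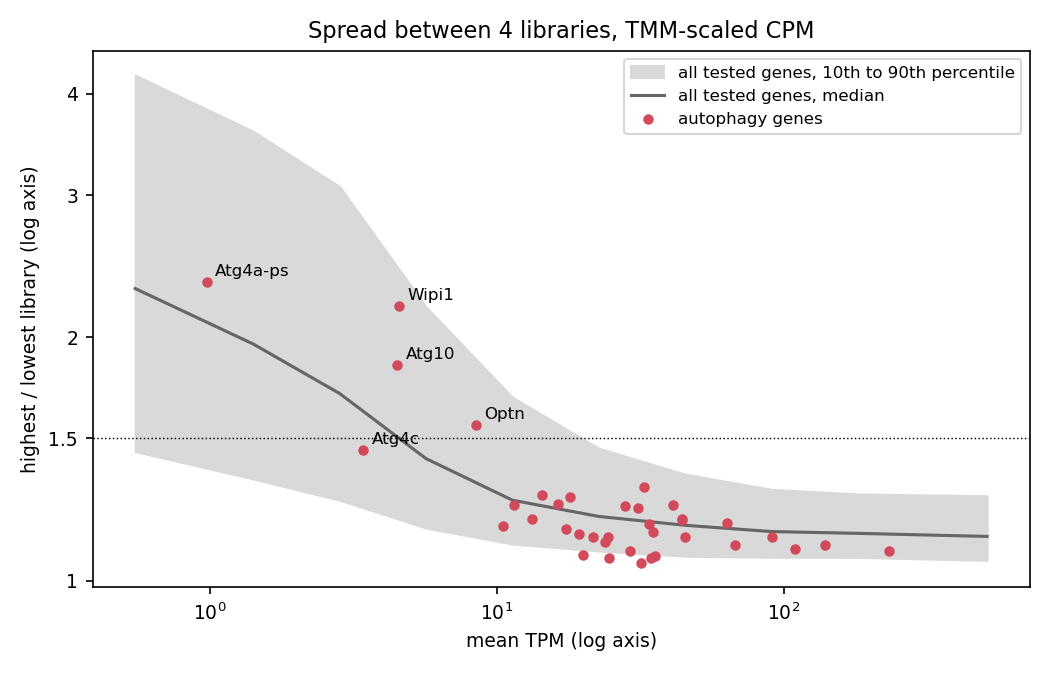
Ratio of the highest to the lowest library in TMM-scaled CPM against mean TPM (both log axes) for the autophagy genes (red), with the median and the 10th to 90th percentiles of all tested genes in bins of level (grey) and 1.5 as a dotted line. Most red points lie near the grey median, and Wipi1, Atg10, Optn and Atg4a-ps lie above 1.5 at means below 10 TPM.

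Most genes listed from around the pathway were expressed too. Of 76 genes in 7 further lists, 72 reached 1 TPM in every library, against 49.1% of all protein-coding genes. By edgeR 1 of 74 tested was called, against 0.378% of all 13494 genes tested. The 76 genes had a median of mean levels of 45.7 TPM. The lists are selections, chosen with earlier results of these data known, so these counts do not show how completely a pathway was expressed.

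Upstream of the pathway all 17 listed genes of mTORC1, TSC and AMPK, the nutrient and energy sensors that switch the ULK complex, were expressed. Ddit4, an mTORC1 inhibitor induced by stress, stood at 562 ± 7.24 TPM and the AMPK subunit gene Prkag1 at 211 ± 9.32 TPM (SD, n = 4). All 7 regulators of the PI3-kinase complex were expressed, led by the anti-apoptotic genes Mcl1, at 264 ± 28.6 TPM, and Bcl2l1, at 253 ± 10.4 TPM; proteins of this family can bind beclin 1. All 6 further membrane and PI3P genes were expressed, led by the scramblase gene Vmp1 at 57.4 ± 6.66 TPM and by Zfyve1, which encodes the PI3P-binding protein DFCP1, at 31.5 ± 2.09 TPM.

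Downstream all 10 genes of fusion with the lysosome were expressed, led by the small GTPase gene Rab7 at 292 ± 13.7 TPM and the SNARE gene Ykt6 at 140.0 ± 0.979 TPM. In the list of lysosomal genes 18 of 19 were, led by Psap, the saposin precursor, at 318 ± 2.31 TPM, and Lamp1 at 199.6 ± 15.4 TPM; the exception was the tetraspanin Cd63, at 0.986 ± 0.237 TPM. Of 4 related transcription factors Foxo1 (62.3 ± 4.82 TPM) and Foxo3 (44.7 ± 5.38 TPM) were expressed, whereas Mitf stood at 0.583 ± 0.168 TPM and Tfec had no count. Tfe3 and Tfeb were thus the members of the MiT/TFE family above 1 TPM.

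Other selective receptors were expressed in 12 of 13 cases. Fkbp8, a mitochondrial receptor, stood at 225 ± 6.38 TPM. Bnip3, a hypoxia-induced mitophagy receptor gene, was the one called, at 94.6 TPM in replicate 1 against 178, 143 and 143 TPM (edgeR adjusted p = 6.73e-04). Its relative Bnip3l measured 87.1, 113, 93.9 and 98.2 TPM and did not pass (edgeR adjusted p = 1.00). The cathepsin gene Ctsl measured 15.1, 26.3, 23.7 and 32.7 TPM, lowest in replicate 1 as Wipi1 and Bnip3 were (edgeR adjusted p = 0.133). Replicate 1 was also the lowest library for 36.5% of all genes tested. Whether Ctsl, Wipi1 and Bnip3 share a source was not tested.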

How the data were processed

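RNA of 4 libraries was sequenced in pairs. The authors deposited raw counts of read pairs per gene, made with featureCounts 1.4.6-p4 on STAR alignments with the reverse strand setting and GENCODE M13, per the file headers; the labels name mm10. Read pairs matching several places or genes were not counted under those settings. The deposited exon length (another value of the same files, summed over merged exons) was used for TPM; 50376 of 50600 identifiers matched GENCODE M21. How STAR was set is not given in the sources used here.

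Variation was tested with edgeR 4.0.16 in R 4.3.3: TMM scaling, filterByExpr with a minimum count of 10, an intercept-only design, trended dispersion and edgeR's goodness-of-fit test (upper tail), Benjamini-Hochberg adjusted over 13494 genes and tested on simulated data. limma 3.58.1 and size factors of DESeq2 1.42.0 were alternatives. Copies were sought with blastn 2.17.0 among M21 transcripts (95% identity, 75 bases). Depth was 46044354, 72147632, 94983494 and 32648138 counts in replicates 1 to 4.

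Every member was named, with library values for the highest and lowest of each step, the fixed pairs and the members of widest ratio. From the other lists, the highest 2, those called and those under 1 TPM were named, except 1 result that is not reported here; Uvrag, Bnip3l and Ctsl were added after their values were seen. The members and lists were chosen with earlier results of these data known.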

Additional observations from a re-analysis of the deposited data

Results flagged for a closer look

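Of 61 values examined (members, pairs and medians), 2 had 1 library set apart from the rest under Dixon's limit for 4 values; chance alone picks out about 1 in 20. Optn was highest in replicate 4, at 11.245 TPM against 7.09 to 7.79 TPM in the others. Rb1cc1 was highest in replicate 2, at 12.124 TPM against 9.82 to 10.2 TPM. Neither was called by edgeR's test of variation (adjusted p = 1.00 for both).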

How the results depend on the processing

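No paired analysis was possible because there is 1 group. Over 8 alternatives (DESeq2 size factors, no filter, limma-trend, the common dispersion and leaving out each library), 295 of 296 member values stayed on the same side of the threshold. The exception was Wipi1, called with the common dispersion (adjusted p = 0.0358; 0.594 to 1.00 under the others), so that 1 member was called. Over all genes the count of 51 became 15 by limma, 937 with the common dispersion, which does not follow the level, and 17 to 56 when a library was left out: 17 without replicate 1 and 23 without replicate 3. The members' median of 27.2 TPM became 28.9 TPM with transcript lengths and 42.2 CPM without length correction. The pairs in 1 direction, the expressed members and the members over 1.5-fold stayed within 1.5 times their counts under every alternative run. Among pairs, Atg16l1 minus Atg16l2 turned to 0.006 in CPM and 1.02 with transcript lengths, Map1lc3b minus Map1lc3a to 2.54, 1.36 and, without replicate 3, 0.016, and Atg2a minus Atg2b to 0.043 without replicate 2 (-0.092 to 0.043 over the libraries left out, and -0.19 with transcript lengths and -0.43 in CPM, below 0 in 4 of 4 libraries; -0.120 to 0.016 for Map1lc3b minus Map1lc3a); apart from the transcript lengths and CPM, the cause was not tested. Steps chosen after seeing the data were leaving out Atg4a-ps and the shared bases of Atg9a. Depth limits Atg4a-ps and Atg10, with 18 and 79 read pairs in replicate 4.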
